A study of Homo sapiens with 6 samples.

Results

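The mRNAs of 33 genes of cholesterol and fatty acid synthesis were followed in T47D-YA breast cancer cells that overexpressed 1 of 2 isoforms of fibroblast growth factor 2 (FGF2). The genes were listed by name for their place in the 2 pathways, and their rows were found by Entrez ID among the 23459 genes of the count table. All 33 were in the table, and 32 had enough counts to be tested, among 13124 genes tested in all. The exception was ME1, cytosolic malic enzyme, a source of NADPH for fatty acid synthesis, which had 1 count in 1 empty vector library and none in the other 5, so that its mRNA was hardly detectable at this depth.

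T47D-YA cells derive from T47D, a human luminal breast cancer line, and carry only isoform A of the progesterone receptor. The study had 3 groups of 2 libraries each, all on the T47D-YA background: cells with the empty vector (MOCK in the labels), cells overexpressing the 18 kDa FGF2 isoform, which is exported, and cells overexpressing the 22.5 kDa isoform, which resides mainly in the nucleus. The labels name no drug or hormone given to the cells. They do not say which promoter drives FGF2, whether a line is 1 clone or a pool, or whether the 2 libraries of a group came from separate cultures. The p-values therefore measure only the spread between these libraries, which may be technical. The series asks how nuclear FGF2 relates to resistance to antiprogestins, and each comparison with the empty vector asks here what an isoform does to lipid synthesis genes.

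Counted totals were 5317687 to 6817324 reads per library. FGF2 itself had 12 and 13 counts with the empty vector and between 4365 and 8731 counts in the 4 overexpressing libraries, which set the overexpressing groups apart from the empty vector as labelled. In CPM (counts scaled to the library size) FGF2 stood at 961 and 767 in the 18 kDa and at 1333 and 1555 in the 22.5 kDa libraries. The 22.5 kDa group thus had more FGF2 mRNA, and isoform and amount cannot be told apart between the FGF2 groups. The 2 libraries of each group were not copies of one another: their counts had chi-square values of 6.20, 14.3 and 14.3 per degree of freedom in the empty vector, 18 kDa and 22.5 kDa groups. The luminal label was checked against markers: all 8 luminal keratin, adhesion and factor genes listed were measured, with a summed level of 12390 to 22920 CPM, while 4 basal markers summed to at most 1.60 CPM. Markers of other cell types were not absent. They summed per library to at most 60.4 CPM for fibroblasts, 42.0 for adipocytes, 15.96 for leukocytes and 5.90 for endothelium. Of the leukocyte markers, CD3E alone had no count.

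Cholesterol is built from acetyl-CoA by way of mevalonate, isoprenoids, squalene and lanosterol, and fatty acids are built from malonyl-CoA and then elongated and desaturated. Both pathways are driven by the membrane-bound factors SREBP-1 and SREBP-2, which SCAP escorts from the endoplasmic reticulum to the Golgi apparatus for cleavage when sterols are low, and which the INSIG proteins hold back when sterols are high. INSIG1 and many enzymes of both pathways are themselves targets of these factors, and luminal breast cancer cells are known for abundant fatty acid synthase.

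Promoters of some of the members described below are shown to let the reader see some of their control elements. Of the members that passed in any comparison, MVK and LPIN1 are not shown. Promoters of 30 of the 33 members, 43 promoters in all, were found in a RefSeq table (GRCh38.p14) that holds 250 bases before to 50 bases after each start. FDFT1, SQLE and FASN were not among them. Each sequence below lies before the start and outside annotated exons, runs 5′ to 3′ on the gene's strand, and has in capitals the matches, on either strand, to the sterol regulatory element TCACNCCAC, the CCAAT box CCAAT, the E-box CACGTG and the GC box GGGCGG. The stretch of INSIG1 is chr7:155297628-155297775 (plus strand), that of SCD chr10:100346983-100347123 (plus strand), that of LSS chr21:46228825-46229024 (minus strand), that of FADS2 chr11:61816154-61816255 (plus strand), that of SREBF1 chr17:17837003-17837236 (minus strand) and that of INSIG2 chr2:118088221-118088451 (plus strand).
INSIG1: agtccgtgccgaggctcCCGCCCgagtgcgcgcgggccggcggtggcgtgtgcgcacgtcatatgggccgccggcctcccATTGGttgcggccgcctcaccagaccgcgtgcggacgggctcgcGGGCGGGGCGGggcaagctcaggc
SCD: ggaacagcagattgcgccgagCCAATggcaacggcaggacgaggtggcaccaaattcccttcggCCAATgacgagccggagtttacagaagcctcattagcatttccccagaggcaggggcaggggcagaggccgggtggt
LSS: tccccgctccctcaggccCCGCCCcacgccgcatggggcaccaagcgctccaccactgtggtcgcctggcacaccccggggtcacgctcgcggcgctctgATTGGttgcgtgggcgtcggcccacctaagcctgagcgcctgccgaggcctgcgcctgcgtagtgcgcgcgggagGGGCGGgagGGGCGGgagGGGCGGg
FADS2: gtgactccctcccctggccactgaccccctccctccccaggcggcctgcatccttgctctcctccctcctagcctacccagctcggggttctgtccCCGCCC
SREBF1: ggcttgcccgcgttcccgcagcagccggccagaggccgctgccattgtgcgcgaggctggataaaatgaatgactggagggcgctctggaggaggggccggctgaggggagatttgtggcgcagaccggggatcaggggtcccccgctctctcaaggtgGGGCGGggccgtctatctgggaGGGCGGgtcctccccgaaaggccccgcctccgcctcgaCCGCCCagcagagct
INSIG2: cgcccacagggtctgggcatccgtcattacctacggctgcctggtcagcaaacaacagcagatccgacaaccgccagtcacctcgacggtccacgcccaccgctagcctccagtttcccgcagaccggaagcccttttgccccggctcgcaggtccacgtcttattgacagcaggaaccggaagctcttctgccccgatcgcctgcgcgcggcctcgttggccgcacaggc
Within these stretches SCD held 2 CCAAT boxes, INSIG1 and LSS 1 CCAAT box each with 3 and 4 GC boxes, SREBF1 3 GC boxes, FADS2 1 GC box, and INSIG2 none of the motifs. The stretches were cut at exons and differ in span, so a motif absent from one can lie elsewhere in that gene's promoters. Promoters searched in full added a CCAAT box for FADS2, an E-box for INSIG1 and LSS, and a GC box for SCD and INSIG2. Over whole promoters, a CCAAT box lay in those of 21 of the 30 member genes (70.0%), against 39.7% of 27305 genes in the table. A GC box lay in those of 29 members (96.7%, against 48.3%) and an E-box in those of 4 (13.3%, against 8.77%). The exact sterol element was in 1 member, SREBF2 (3.33%, against 1.39%). GC boxes and CCAAT boxes are usual in promoters rich in G and C, and a match is a description of letters, not of a bound factor. No searched motif contains another, and base composition was not matched between members and all genes.

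With 18 kDa FGF2, 1 of the 32 tested members passed the test, LSS, which was lower (edgeR's quasi-likelihood test with Benjamini-Hochberg adjustment over 13124 genes, adjusted p under 0.05, as for every adjusted p below). In that comparison 8.88% of all genes tested passed, 4.09% higher and 4.79% lower. With 22.5 kDa FGF2, 5 members fell, MVK, SREBF1, INSIG1, SCD and FADS2, and 1 rose, LPIN1, where 10.9% of all genes tested passed, 5.02% higher and 5.88% lower. No member passed with both isoforms. Between the isoforms 1 member passed, SREBF1, lower with 22.5 kDa FGF2, where 1.58% of all genes tested passed, 1.13% higher and 0.45% lower. No member was higher with 18 kDa FGF2 than with the empty vector under edgeR or DESeq2 (1 at an unadjusted p under 0.05), and 0 were higher with 22.5 kDa than with 18 kDa FGF2 under either (1 at an unadjusted p under 0.05). In bulk RNA, fewer cells that make an mRNA and less of it per cell cannot be told apart.

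The median log2 fold change of the 32 members was -0.14 with 18 kDa FGF2 (all genes tested -0.05), -0.20 with 22.5 kDa FGF2 (all genes 0.01) and 0.04 between the isoforms (all genes 0.02). Fold changes were below 0 for 21 members with 18 kDa and for 20 with 22.5 kDa FGF2, and for 7073 and 6468 of all 13124 genes tested. Both libraries of a group lay below both empty vector libraries for 11 members with 18 kDa FGF2 (34.4%, against 26.9% of all genes tested) and for 14 with 22.5 kDa FGF2 (43.8%, against 27%). They lay above both for 7 members with either isoform (21.9%, against 25% and 26% of all genes). Both comparisons use the same empty vector libraries. Between the isoforms 6 members were higher without overlap (18.8%, against 19.1% of all genes tested) and 7 lower (21.9%, against 19%). The 18 kDa libraries differed from each other here, with 16 of the 32 members above the empty vector mean in replicate 1 (median log2 ratio -0.01) and 8 in replicate 2 (-0.26), while the 22.5 kDa libraries had 13 and 14 members above it (-0.22 and -0.10). Of all 13124 genes tested, 5989 and 6685 lay above it in the 18 kDa libraries (medians -0.06 and 0.01). In the 22.5 kDa libraries 6718 and 6354 did (0.02 and -0.02). The standard error of a member's log2 fold change had a median of 0.23 in each comparison, which sets the size of change that could pass.

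**Figure D1:**
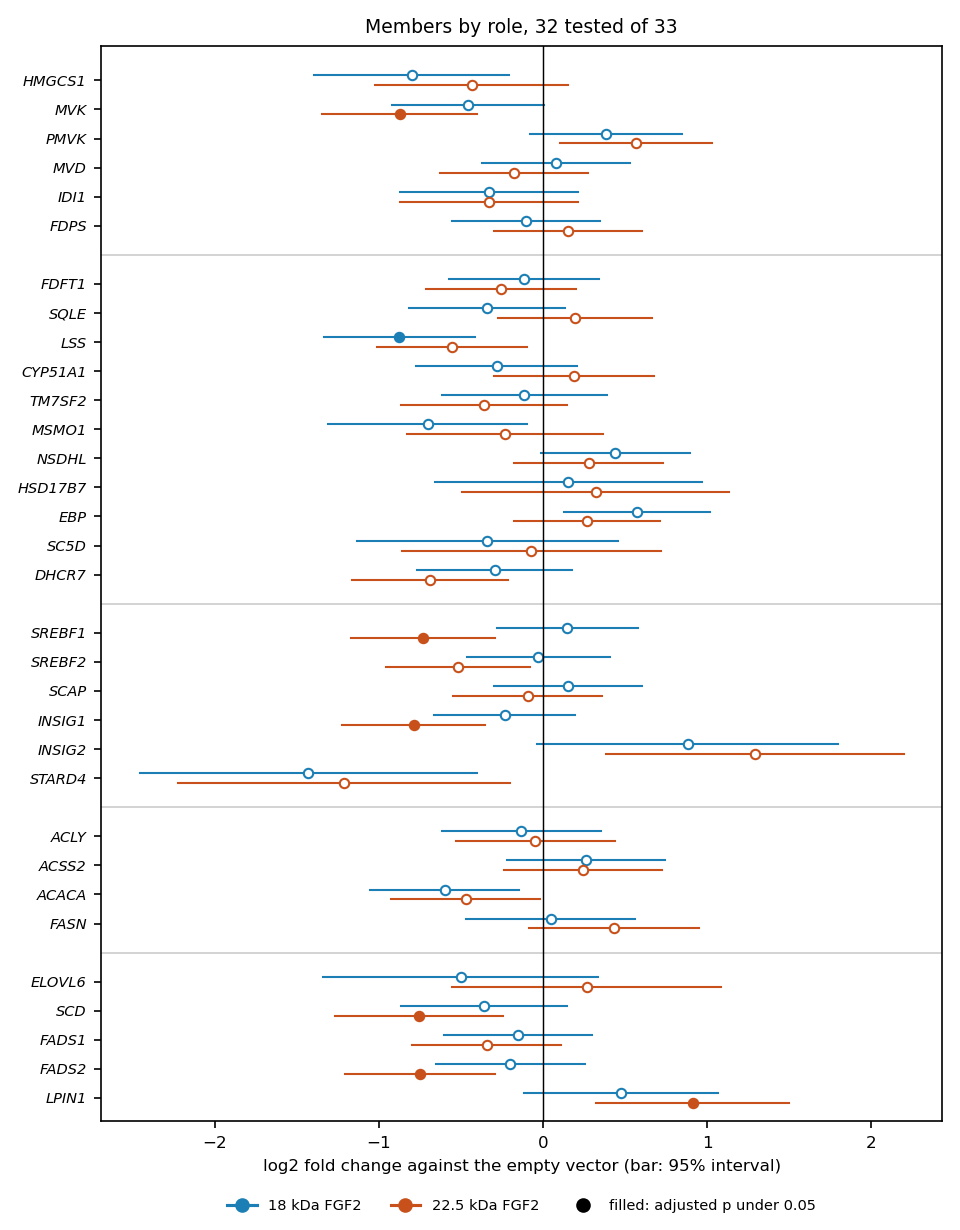
Log2 fold change of the 32 tested members against the empty vector (x axis) by gene, grouped from top to bottom as mevalonate steps, squalene and sterol steps, SREBP system, fatty acid synthesis, and elongation to phosphatidate, for 18 kDa (blue) and 22.5 kDa FGF2 (orange). Bars are 95% intervals of the fit on 2 libraries a group, and filled points passed the test: LSS with 18 kDa FGF2, and MVK, SREBF1, INSIG1, SCD, FADS2 and LPIN1 with 22.5 kDa FGF2.

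Of the genes that control the pathway, SREBF1 differed between the isoforms. SREBF1 (Entrez 6720, chromosome 17) encodes SREBP-1, the factor that favours fatty acid genes. Its level was 269 and 269 CPM with the empty vector, 326 and 270 CPM with 18 kDa FGF2 and 156 and 168 CPM with 22.5 kDa FGF2. Both 22.5 kDa libraries thus lay below all 4 others, and the 18 kDa libraries lay at or above the empty vector. SREBF1 fell 1.66-fold with 22.5 kDa FGF2 (log2 fold change -0.73, 95% interval -1.17 to -0.30, adjusted p = 0.0241) and had a log2 fold change of 0.15 with 18 kDa FGF2 (-0.28 to 0.58, adjusted p = 0.757). The direct comparison put it 1.84-fold lower with 22.5 kDa than with 18 kDa FGF2 (log2 fold change -0.88, -1.32 to -0.44, adjusted p = 0.0278). The fall against the empty vector missed the threshold without empty vector replicate 1 (adjusted p = 0.206) or 2 (0.202) and without 22.5 kDa replicate 1 (0.101) or 2 (0.0734), with a range of 0.00329 to 0.615 over its 14 alternatives. The difference between the isoforms missed it without empty vector replicate 1 (0.0528) or 2 (0.0556), or without 18 kDa replicate 1 (0.241), or without 22.5 kDa replicate 1 (0.200) or 2 (0.123), and in a fit of the 2 groups alone (0.0510), with a range of 0.00273 to 0.874. Its log2 fold change kept its sign in all 14 alternatives of each comparison.

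SREBF2 (Entrez 6721, chromosome 22) encodes SREBP-2, the paralog that favours cholesterol genes. It was at 269 and 273 CPM with the empty vector, 293 and 238 CPM with 18 kDa FGF2 and 175 and 203 CPM with 22.5 kDa FGF2. The 22.5 kDa libraries were again the lowest pair, but neither its log2 fold change of -0.52 with 22.5 kDa FGF2 (-0.96 to -0.08, adjusted p = 0.131) nor the -0.49 between the isoforms (adjusted p = 0.341) passed. The promoter of SREBF2 is the one that held the sterol element. SCAP, the escort of both factors, was at 208 and 220 CPM with the empty vector and between 164 and 248 CPM in the 4 FGF2 libraries, overlapping the empty vector with 22.5 kDa FGF2, and had log2 fold changes of 0.15 and -0.09 (adjusted p = 0.764 and 0.864).

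INSIG1 and INSIG2, the paralogs that retain SCAP in the endoplasmic reticulum, lay on opposite sides of the empty vector. INSIG1 (Entrez 3638, chromosome 7), which the SREBPs themselves induce, had 118 and 136 CPM with the empty vector, 113 and 103 CPM with 18 kDa FGF2, and 70.2 and 76.8 CPM with 22.5 kDa FGF2. The 3 groups did not overlap, with the 22.5 kDa libraries lowest. INSIG1 fell 1.73-fold with 22.5 kDa FGF2 (log2 fold change -0.79, -1.22 to -0.35, adjusted p = 0.0149), and its values with 18 kDa FGF2 (-0.23, adjusted p = 0.588) and between the isoforms (-0.55, adjusted p = 0.249) did not pass. The call was lost without empty vector replicate 1 (0.0738) or 2 (0.247) and without 22.5 kDa replicate 1 (0.0879) or 2 (0.0588), within a range of 0.00316 to 0.482.

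INSIG2 (Entrez 51141, chromosome 2) was a rare mRNA, with 23 and 18 counts in the empty vector libraries. Its level was 4.11 and 3.38 CPM with the empty vector, 4.60 and 9.31 CPM with 18 kDa FGF2, and 9.93 and 8.42 CPM with 22.5 kDa FGF2. All 4 FGF2 libraries lay above both empty vector libraries, though the first 18 kDa library did so narrowly. The log2 fold change of 1.29 with 22.5 kDa FGF2 (0.38 to 2.20) had an adjusted p of 0.0603, and that of 0.88 with 18 kDa FGF2 had 0.275. INSIG2 passed with 22.5 kDa FGF2 in 5 of 14 alternatives, among them the fits without 18 kDa replicate 1 (0.0201) or 2 (0.0277), with a range of 0.0201 to 0.324. The 24 tested genes nearest to INSIG2 on its chromosome had a median log2 fold change of 0.56 with 18 kDa and 0.67 with 22.5 kDa FGF2. Whether this neighbourhood had a part in the values of INSIG2 was not tested.

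STARD4 (Entrez 134429, chromosome 5), a cytosolic sterol carrier and another SREBP target, was measured from 8 to 23 counts per library. It stood at 3.76 and 4.32 CPM with the empty vector, 1.23 and 1.76 CPM with 18 kDa FGF2, and 1.83 and 1.60 CPM with 22.5 kDa FGF2. Every FGF2 library was below both empty vector libraries, and the log2 fold changes of -1.43 (-2.46 to -0.40, adjusted p = 0.0780) and -1.21 (-2.23 to -0.20, adjusted p = 0.124) did not pass. Over the 6 genes of the SREBP system and sterol transport, the median log2 fold change was 0.06 with 18 kDa FGF2, where 0 passed (1 lower at an unadjusted p under 0.05, 0 with DESeq2). It was -0.63 with 22.5 kDa FGF2, where 2 fell and 0 rose, and the 2 libraries of that group had medians of -0.70 and -0.55 relative to the empty vector mean.

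**Figure D2:**
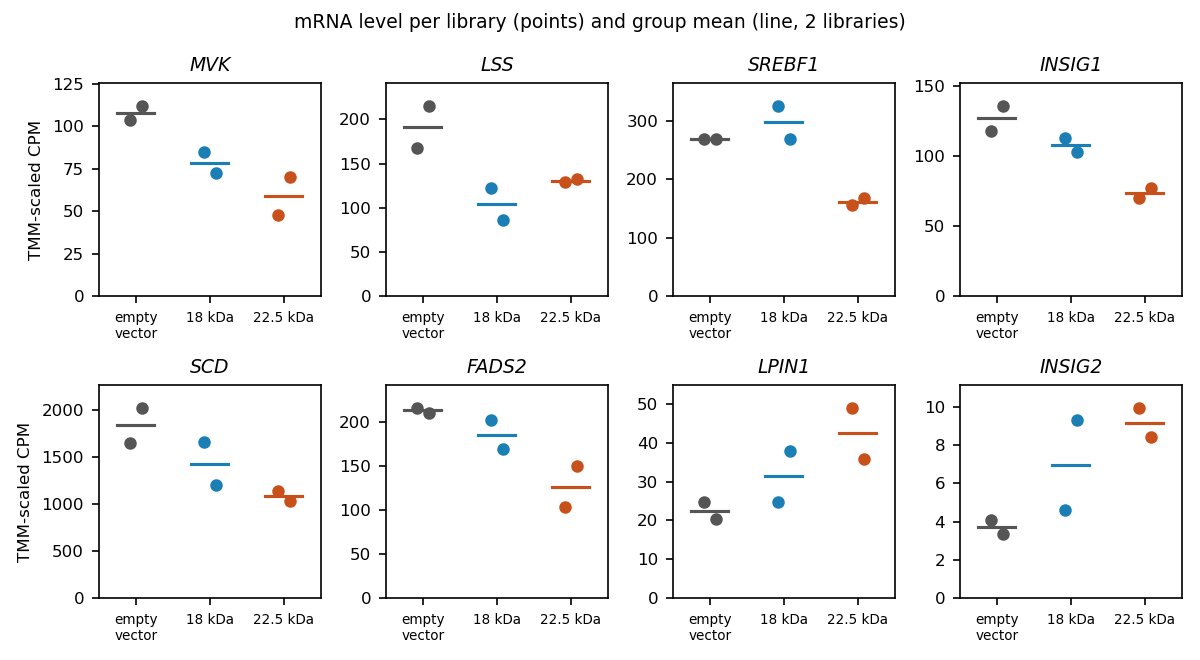
TMM-scaled CPM in each library (points) and group means (lines, 2 libraries each) of the 7 members that passed in any comparison and of INSIG2, with the y axes starting at 0. MVK, SREBF1, INSIG1, SCD and FADS2 are lowest in the 22.5 kDa libraries, LSS is lowest with 18 kDa FGF2 (86.6 and 122 CPM), and LPIN1 and INSIG2 are high with 22.5 kDa FGF2.

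Of the 6 genes of the mevalonate steps, 1 fell with 22.5 kDa FGF2 and 0 passed with 18 kDa FGF2 (1 lower at an unadjusted p under 0.05, 0 with DESeq2). The median log2 fold changes were -0.22 and -0.25. The gene that fell was MVK (Entrez 4598, chromosome 12), mevalonate kinase, which adds the first phosphate to mevalonate. It was at 104 and 112 CPM with the empty vector, 84.7 and 72.4 CPM with 18 kDa FGF2, and 47.6 and 70.4 CPM with 22.5 kDa FGF2. The groups did not overlap, and the order from empty vector to 18 kDa to 22.5 kDa FGF2 held in every library, although the gap between the second 18 kDa and the second 22.5 kDa library was small. MVK was 1.83-fold lower with 22.5 kDa FGF2 (log2 fold change -0.87, -1.34 to -0.41, adjusted p = 0.0119). Its values with 18 kDa FGF2 (-0.46, adjusted p = 0.255) and between the isoforms (-0.42, -0.89 to 0.05, adjusted p = 0.479) did not pass. The call was lost without empty vector replicate 1 (0.0565) or 2 (0.125) or without 22.5 kDa replicate 1 (0.154), within a range of 0.00259 to 0.342.

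PMVK, phosphomevalonate kinase, acts on the product of MVK and lay on the other side of the empty vector. PMVK had 103 and 118 CPM with the empty vector, 136 and 153 CPM with 18 kDa FGF2, and 132 and 197 CPM with 22.5 kDa FGF2. All 4 FGF2 libraries were above the empty vector, with log2 fold changes of 0.38 (adjusted p = 0.364) and 0.57 (0.10 to 1.03, adjusted p = 0.114). PMVK passed with 22.5 kDa FGF2 when that group's replicate 1 was left out (0.0358, range 0.000116 to 1.00). HMGCS1, which makes HMG-CoA for the pathway, had 42.6 and 34.0 CPM with the empty vector, 17.3 and 26.7 CPM with 18 kDa FGF2, and 31.5 and 25.1 CPM with 22.5 kDa FGF2. Both FGF2 groups lay below the empty vector without passing (log2 fold change -0.80, adjusted p = 0.0910, and -0.43, adjusted p = 0.394), and HMGCS1 passed with 18 kDa FGF2 when that group's replicate 2 was left out (0.0283, range 0.0283 to 0.706).

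The last steps to farnesyl diphosphate were close to the empty vector. MVD, the decarboxylase, had log2 fold changes of 0.08 with 18 kDa and -0.18 with 22.5 kDa FGF2. IDI1, the isomerase of isopentenyl diphosphate, had -0.33 with both. FDPS, farnesyl diphosphate synthase, was the most abundant of the 6 mRNAs per length and stood at 197 and 205 CPM with the empty vector, 217 and 157 CPM with 18 kDa FGF2, and 202 and 244 CPM with 22.5 kDa FGF2. The libraries of all 3 groups overlapped for FDPS, MVD and IDI1, and their adjusted p-values lay between 0.507 and 0.886 in both comparisons. FDPS has processed pseudogenes, and reads shared with them were counted in a way not given in the sources used here.

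Among the 11 genes from squalene to cholesterol, 1 fell with 18 kDa FGF2. With 22.5 kDa FGF2 0 passed (2 lower at an unadjusted p under 0.05, 1 lower with DESeq2). The median log2 fold changes were -0.28 and -0.07. LSS (Entrez 4047, chromosome 21), lanosterol synthase, closes the sterol ring system. Its level was 168 and 215 CPM with the empty vector, 122 and 86.6 CPM with 18 kDa FGF2, and 129 and 132 CPM with 22.5 kDa FGF2. Every FGF2 library was below both empty vector libraries, and the second 18 kDa library was the lowest. LSS fell 1.84-fold with 18 kDa FGF2 (log2 fold change -0.88, -1.34 to -0.42, adjusted p = 0.0115). Its -0.56 with 22.5 kDa FGF2 (-1.01 to -0.10, adjusted p = 0.118) did not pass, and the isoforms were not shown to differ (0.32, -0.14 to 0.78, adjusted p = 0.609). The call was lost without empty vector replicate 2 (0.267) and likewise without 18 kDa replicate 2 (0.138), within a range of 4.21e-06 to 0.373. The 24 tested genes nearest to LSS had medians of 0.18 and 0.30, on the other side of 0 from LSS.

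DHCR7 (Entrez 1717, chromosome 11), which makes cholesterol from 7-dehydrocholesterol in the last step, was the most abundant of these 11 mRNAs per length with the empty vector. DHCR7 had 471 and 469 CPM with the empty vector, 449 and 317 CPM with 18 kDa FGF2, and 257 and 327 CPM with 22.5 kDa FGF2. The empty vector libraries were almost equal and lay above all the others. Its log2 fold change with 22.5 kDa FGF2 was -0.69 (-1.16 to -0.22, adjusted p = 0.0538), just outside the threshold, and DHCR7 passed in 8 of 14 alternatives, DESeq2 (0.0441) and the fits without 18 kDa replicate 1 (0.0413) or 2 (0.0278) among them, with a range of 0.0278 to 0.746. With 18 kDa FGF2 the value was -0.30 (adjusted p = 0.521).

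FDFT1, squalene synthase, commits farnesyl diphosphate to sterols. FDFT1 was at 355 and 388 CPM with the empty vector, 386 and 299 CPM with 18 kDa FGF2, and 277 and 344 CPM with 22.5 kDa FGF2, with log2 fold changes of -0.12 and -0.26 (adjusted p = 0.826 and 0.544). SQLE, squalene epoxidase, the oxygen-dependent step before LSS, was at 50.8 and 68.5 CPM with the empty vector, 49.4 and 44.6 CPM with 18 kDa FGF2, and 71.0 and 65.6 CPM with 22.5 kDa FGF2. SQLE was thus lower in both 18 kDa libraries than in both 22.5 kDa libraries, a log2 difference of 0.54 (0.07 to 1.01) that did not pass (adjusted p = 0.324).

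The demethylases and reductases between lanosterol and cholesterol were spread around the empty vector. CYP51A1, the first demethylase, was at 49.2 and 50.3 CPM, then 42.2 and 39.5 CPM with 18 kDa FGF2, and 66.0 and 46.9 CPM with 22.5 kDa FGF2. MSMO1, which acts in a later demethylation, was at 28.8 and 30.2 CPM, then 15.4 and 20.9 CPM, and 26.6 and 23.7 CPM in the same order. For both genes the 22.5 kDa libraries lay above the 18 kDa libraries, with log2 differences of 0.47 and 0.47 (adjusted p = 0.441 and 0.552), and MSMO1 was the lower of the pair with 18 kDa FGF2 against the empty vector (-0.70, adjusted p = 0.160). The neighbours of MSMO1 had medians of -0.45 with 18 kDa and 0.03 with 22.5 kDa FGF2.

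EBP, the sterol isomerase, and NSDHL, which removes a carboxyl carbon, lie on the X chromosome and were above the empty vector. EBP had 117 and 114 CPM with the empty vector, 186 and 158 CPM with 18 kDa FGF2, and 120 and 159 CPM with 22.5 kDa FGF2. Its log2 fold change with 18 kDa FGF2 was 0.57 (0.13 to 1.02, adjusted p = 0.109) and passed without 18 kDa replicate 2 (0.0495, range 0.0495 to 1.00). The 24 genes nearest to EBP had a median of 0.94 with 18 kDa and 0.64 with 22.5 kDa FGF2, above EBP itself, and their part in its value was not tested. NSDHL had values of 0.44 (adjusted p = 0.267) and 0.28 (adjusted p = 0.507). TM7SF2, a sterol reductase, SC5D, a desaturase, and HSD17B7, a keto reductase, had log2 fold changes between -0.36 and 0.32 with either isoform, and adjusted p-values from 0.417 to 0.944. The libraries of TM7SF2 overlapped widely with 22.5 kDa FGF2 (154 and 269 CPM, against 281 and 261 CPM with the empty vector). HSD17B7 has a near-identical pseudogene, and its 37 to 70 counts per library are uncertain for that reason.

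Fatty acid synthesis proper did not pass at any gene: of the 4 tested genes 0 passed with either isoform (1 lower at an unadjusted p under 0.05 with each, 0 with DESeq2). FASN (Entrez 2194, chromosome 17), the synthase that builds palmitate, was the most abundant member in CPM, at 2165 and 2140 CPM with the empty vector, 2408 and 2034 CPM with 18 kDa FGF2, and 2527 and 3280 CPM with 22.5 kDa FGF2. Both 22.5 kDa libraries were above all 4 others, but the lower of them was nearer to the highest 18 kDa library than to its own replicate, and the log2 fold change of 0.43 (-0.09 to 0.95, adjusted p = 0.317) did not pass. With 18 kDa FGF2 the value was 0.05 (-0.47 to 0.56, adjusted p = 0.946). ACLY, which cleaves citrate to cytosolic acetyl-CoA, was at 581 and 644 CPM with the empty vector, 665 and 451 CPM with 18 kDa FGF2, and 547 and 637 CPM with 22.5 kDa FGF2, so that all groups overlapped (log2 fold changes -0.13 and -0.05, adjusted p = 0.810 and 0.941).

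ACACA, acetyl-CoA carboxylase, which makes malonyl-CoA, was the gene of these 4 that reached an unadjusted p under 0.05. ACACA had 183 and 259 CPM with the empty vector, 132 and 159 CPM with 18 kDa FGF2, and 165 and 154 CPM with 22.5 kDa FGF2. Every FGF2 library was below both empty vector libraries, which were themselves far apart, and the log2 fold changes of -0.60 (-1.05 to -0.15, adjusted p = 0.0969) and -0.47 (-0.92 to -0.02, adjusted p = 0.191) did not pass. ACSS2, which makes acetyl-CoA from acetate, had 0.26 and 0.24 (adjusted p = 0.593 and 0.596) with overlapping libraries.

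Desaturation and the step to diacylglycerol held 3 of the 6 calls with 22.5 kDa FGF2. Over all genes tested, 5.88% passed as lower and 5.02% as higher in that comparison. The list of these genes was chosen with earlier results of these data known, and no set test was made. Of the 5 genes from elongation to phosphatidate, 2 fell and 1 rose with 22.5 kDa FGF2, and with 18 kDa FGF2 0 passed (0 at an unadjusted p under 0.05 and 0 with DESeq2). The median log2 fold changes were -0.20 with 18 kDa and -0.34 with 22.5 kDa FGF2. SCD (Entrez 6319, chromosome 10), stearoyl-CoA desaturase, puts the first double bond into saturated acyl chains. It had 1651 and 2019 CPM with the empty vector, 1657 and 1202 CPM with 18 kDa FGF2, and 1137 and 1034 CPM with 22.5 kDa FGF2. The 22.5 kDa libraries were the lowest pair, and 1 of the 18 kDa libraries lay within the empty vector range. SCD was 1.69-fold lower with 22.5 kDa FGF2 (log2 fold change -0.76, -1.27 to -0.25, adjusted p = 0.0489), and its -0.36 with 18 kDa FGF2 (adjusted p = 0.455) and -0.40 between the isoforms (adjusted p = 0.553) did not pass. The call was lost without empty vector replicate 1 (0.130) or 2 (0.424) or without 22.5 kDa replicate 1 (0.0977) or 2 (0.185), within a range of 0.00953 to 0.616.

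FADS2 and FADS1 are neighbouring paralogs on chromosome 11 that desaturate polyunsaturated chains in turn. FADS2 (Entrez 9415) had 216 and 211 CPM with the empty vector, 202 and 170 CPM with 18 kDa FGF2, and 104 and 150 CPM with 22.5 kDa FGF2. No groups overlapped, and the 22.5 kDa libraries were lowest. FADS2 fell 1.68-fold with 22.5 kDa FGF2 (log2 fold change -0.75, -1.21 to -0.30, adjusted p = 0.0272), while the -0.20 with 18 kDa FGF2 (adjusted p = 0.675) and the -0.55 between the isoforms (-1.01 to -0.10, adjusted p = 0.276) did not pass. The call was lost without empty vector replicate 1 (0.192) or 2 (0.158) or without 22.5 kDa replicate 1 (0.216), within a range of 0.0106 to 0.584. FADS1 had 69.7 and 90.4 CPM with the empty vector, 76.9 and 66.9 CPM with 18 kDa FGF2, and 64.0 and 62.1 CPM with 22.5 kDa FGF2. Its 22.5 kDa libraries were the lowest too, with a log2 fold change of -0.34 (-0.80 to 0.11, adjusted p = 0.380) that did not pass.

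LPIN1 (Entrez 23175, chromosome 2), lipin 1, turns phosphatidate into diacylglycerol and also acts in the nucleus, and it was the member that rose. LPIN1 had 24.9 and 20.3 CPM with the empty vector, 24.9 and 38.0 CPM with 18 kDa FGF2, and 48.9 and 35.9 CPM with 22.5 kDa FGF2. Both 22.5 kDa libraries were well above the empty vector, while the first 18 kDa library was level with it. The mRNA was 1.88-fold higher with 22.5 kDa FGF2 (log2 fold change 0.91, SE 0.29, adjusted p = 0.0384), and its value of 0.47 with 18 kDa FGF2 (adjusted p = 0.380) did not pass. The call was lost without empty vector replicate 1 (0.112) or 2 (0.314) or without 22.5 kDa replicate 1 (0.284) or 2 (0.0798), and with both first FGF2 libraries left out together (0.0728), within a range of 0.00927 to 0.398. The 24 tested genes nearest to LPIN1 had medians of 0.49 with 18 kDa and 0.63 with 22.5 kDa FGF2, and the part of this neighbourhood in its rise was not tested. ELOVL6, the elongase of palmitate, had 33 to 79 counts per library and log2 fold changes of -0.50 and 0.26 (adjusted p = 0.545 and 0.771).

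Per kilobase of the longest coding transcript, the order of the most abundant members differed between groups. SCD led with the empty vector at 342 CPM per kb, followed by FASN at 251 and DHCR7 at 176. With 22.5 kDa FGF2 FASN led at 339 CPM per kb and SCD stood at 203. With 18 kDa FGF2 the 2 were close, at 259 for FASN and 267 for SCD, and their libraries did not separate beyond their spread. The rarest tested members were STARD4, INSIG2 and ELOVL6, at 0.876, 1.45 and 1.55 CPM per kb with the empty vector.

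The genes around each member were summarised by the median log2 fold change of the 24 nearest tested genes. SREBF1 had 0.07 with 18 kDa and 0.01 with 22.5 kDa FGF2 around it, MVK -0.10 and -0.10, INSIG1 0.31 and -0.06, SCD -0.08 and -0.13, and FADS2 -0.02 and -0.17. The 5 members that fell with 22.5 kDa FGF2 thus had neighbours whose medians lay between -0.17 and 0.01. LPIN1, INSIG2 and EBP instead lay in regions with medians between 0.49 and 0.94 in both comparisons.

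**Figure D3:**
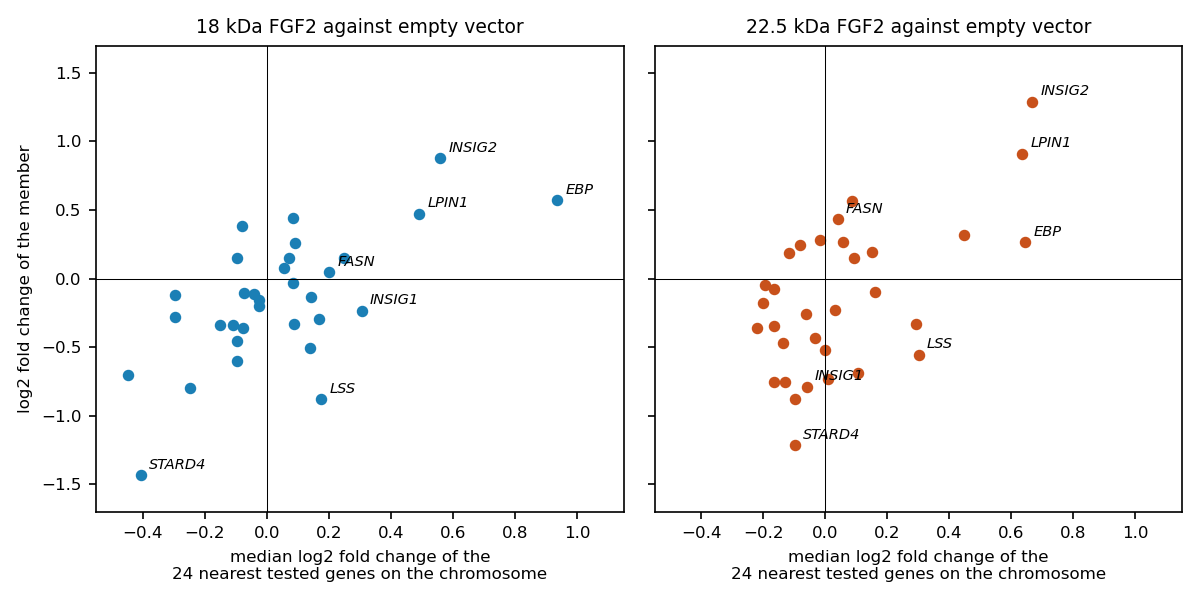
Log2 fold change of each of the 32 tested members (y axis) against the median log2 fold change of its 24 nearest tested genes on the chromosome (x axis), for 18 kDa FGF2 (left) and 22.5 kDa FGF2 (right). INSIG2, LPIN1 and EBP lie to the right, at neighbour medians of 0.49 to 0.94, and LSS lies below 0 with neighbours above 0.

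Genes around the 2 pathways were read from 6 lists. Among the genes that process or turn over the SREBPs, MBTPS2 rose with 22.5 kDa FGF2. MBTPS2 (Entrez 51360, X chromosome), the site-2 protease that frees the SREBPs from the membrane, had 8.76 and 9.38 CPM with the empty vector, 9.82 and 23.0 CPM with 18 kDa FGF2, and 52.5 and 35.3 CPM with 22.5 kDa FGF2. The 22.5 kDa libraries were above all others and the 18 kDa libraries were unequal. MBTPS2 rose 4.84-fold with 22.5 kDa FGF2 (log2 fold change 2.28, SE 0.38, adjusted p = 0.000479), and its 24 nearest tested genes had a median of 1.60 there and 0.74 with 18 kDa FGF2, whose part was not tested. Between the isoforms MBTPS2 had 1.43 (adjusted p = 0.0542). It passed in 9 of 14 alternatives, among them DESeq2 (0.0235), RLE size factors (0.0161), the 2 groups alone (0.00259) and the replicate block (0.00219). In the others it did not pass, with an adjusted p of up to 0.559. With 18 kDa FGF2 it had 0.85 (adjusted p = 0.214) and passed without 18 kDa replicate 1 (0.00794, range 0.00166 to 0.836).

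Among 18 tested genes of further fatty acid synthesis, elongation and desaturation, 4 fell with 18 kDa and 3 with 22.5 kDa FGF2, and none rose with edgeR or DESeq2 (0 and 1 at an unadjusted p under 0.05). The lower calls were 22.2% and 16.7% of the list, against 4.79% and 5.88% of all genes tested. The list's median log2 fold changes were -0.13 and 0.10, and 7 and 10 of the 18 genes had values above 0. THRSP (Entrez 7069, chromosome 11), a lipogenic protein induced by thyroid hormone, went from 24.5 and 30.4 CPM with the empty vector to 2.61 and 5.62 CPM with 18 kDa and 4.12 and 5.81 CPM with 22.5 kDa FGF2. All FGF2 libraries were far below the empty vector, and the fall was 6.70-fold with 18 kDa (log2 fold change -2.74, SE 0.41, adjusted p = 5.8e-05) and 5.55-fold with 22.5 kDa FGF2 (-2.47, SE 0.41, adjusted p = 0.000149). THRSP passed in every alternative computed. ELOVL5, an elongase of polyunsaturated chains, went from 143 and 156 CPM to 69.2 and 94.3 CPM with 18 kDa and 92.4 and 64.5 CPM with 22.5 kDa FGF2 (log2 fold changes -0.87, adjusted p = 0.0149, and -0.93, adjusted p = 0.00820). Both FGF2 groups lay below the empty vector and overlapped each other. Its call was lost with 18 kDa FGF2 without empty vector replicate 1 (0.0591) or 2 (0.147) and without 18 kDa replicate 1 (0.179), range 0.00336 to 0.408, and with 22.5 kDa FGF2 without empty vector replicate 2 (0.0906) or without 22.5 kDa replicate 2 (0.142), range 1.24e-06 to 0.258.

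MLXIPL, the sugar-sensing lipogenic factor ChREBP, went from 17.3 and 19.9 CPM to 7.52 and 8.26 CPM with 18 kDa and 6.11 and 8.42 CPM with 22.5 kDa FGF2. Both FGF2 groups were below the empty vector and overlapped each other (log2 fold changes -1.24, adjusted p = 0.0325, and -1.36, adjusted p = 0.0158). The call with 18 kDa FGF2 was lost without empty vector replicate 1 (0.134) or 2 (0.249), or without 18 kDa replicate 1 (0.122) or 2 (0.0586) or without 22.5 kDa replicate 2 (0.0538), range 0.0225 to 0.249. That with 22.5 kDa FGF2 was lost without empty vector replicate 1 (0.0698) or 2 (0.153) or without 22.5 kDa replicate 1 (0.145) or 2 (0.0685), range 0.00448 to 0.153. SCD5, the second stearoyl-CoA desaturase of human cells, had 10 and 21 counts with the empty vector, 2 and 4 with 18 kDa FGF2, and 7 and 3 with 22.5 kDa FGF2. It passed with 18 kDa FGF2 (adjusted p = 0.0185), not with DESeq2 (0.235) nor without empty vector replicate 2 (0.343), or without 18 kDa replicate 1 (0.198) or without 22.5 kDa replicate 2 (0.0669), nor with both first FGF2 libraries left out (0.128) or against a fold of 1.5 (0.0589), range 0.00806 to 0.343.

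Of 8 tested glycerolipid genes, 1 rose with each isoform. AGPAT2 (Entrez 10555, chromosome 9), which makes phosphatidate, the substrate of LPIN1, had 145 and 137 CPM with the empty vector, 342 and 333 CPM with 18 kDa FGF2, and 256 and 338 CPM with 22.5 kDa FGF2. All FGF2 libraries were well above the empty vector, by 2.40-fold with 18 kDa (log2 fold change 1.26, SE 0.22, adjusted p = 0.0003) and 2.11-fold with 22.5 kDa FGF2 (1.08, SE 0.22, adjusted p = 0.00133). The genes around AGPAT2 had medians of 0.31 and 0.20.

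Sterol handling and isoprenoid genes gave 1 call each. Of 14 genes of the oxysterol receptor LXR, sterol export, esterification and trafficking, OSBP, an oxysterol-binding protein, was lower with 18 kDa FGF2 (192 and 218 CPM against 117 and 142 CPM, log2 fold change -0.66, adjusted p = 0.0470), and 0 passed with 22.5 kDa FGF2 (2 lower at an unadjusted p under 0.05, 0 with DESeq2). The list's medians were -0.38 and -0.26. The OSBP call was lost without empty vector replicate 1 (0.206) or 2 (0.426), or without 18 kDa replicate 1 (0.332) or 2 (0.0518) or without 22.5 kDa replicate 2 (0.0505), and with the replicate number as a block (0.0557), range 0.0286 to 0.911. Of 10 further genes of sterol and isoprenoid synthesis 0 passed against the empty vector (1 lower with 18 kDa and 1 higher with 22.5 kDa FGF2 at an unadjusted p under 0.05, 0 with DESeq2). GGPS1 (Entrez 9453, chromosome 1), which makes geranylgeranyl diphosphate, differed between the isoforms, with 14.4 and 21.6 CPM with 18 kDa and 43.5 and 43.3 CPM with 22.5 kDa FGF2 around 29.7 and 25.3 CPM with the empty vector. The 22.5 kDa libraries lay above and the 18 kDa libraries below the empty vector, and the difference was 2.41-fold (log2 fold change 1.27, SE 0.28, adjusted p = 0.0154), beside a neighbour median of 0.68. It was lost without 18 kDa replicate 1 (0.176) or without 22.5 kDa replicate 1 (0.187) or 2 (0.164), with both first FGF2 libraries left out (0.0751) and against a fold of 1.5 (0.219), range 0.00131 to 0.219. Of 15 fatty acid oxidation genes 0 passed in any comparison with edgeR or DESeq2 (0 with 18 kDa and 2 higher with 22.5 kDa FGF2 at an unadjusted p under 0.05).

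**Figure D4:**
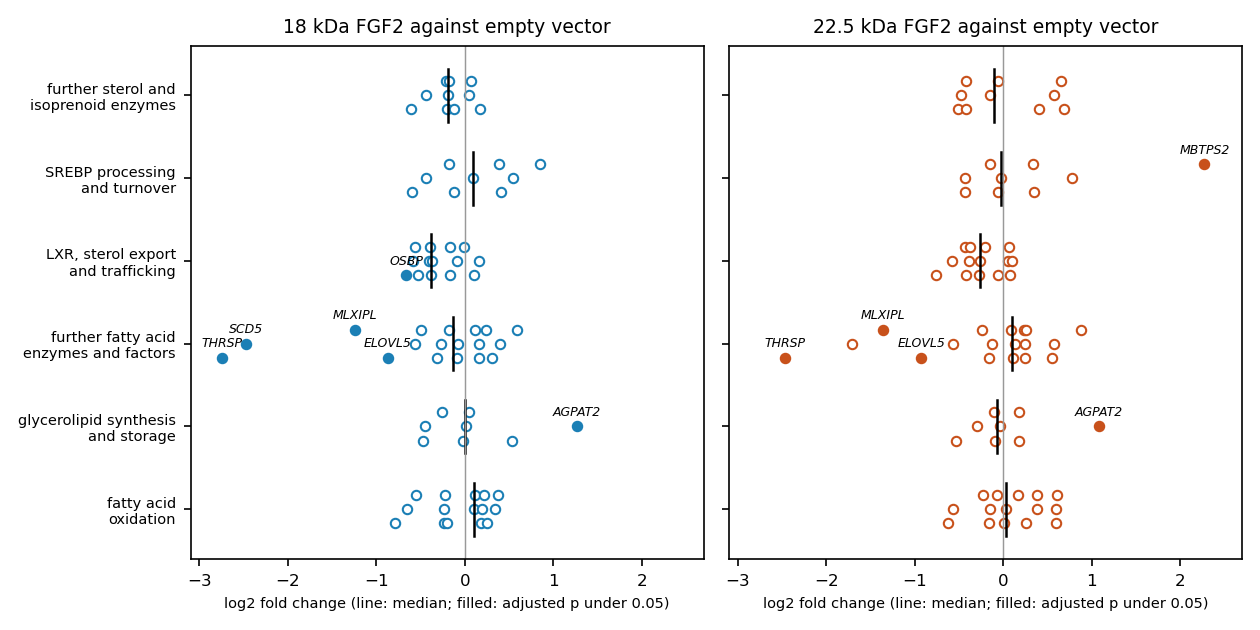
Log2 fold change against the empty vector (x axis) of tested genes of 6 further lists (rows), with 18 kDa FGF2 on the left and 22.5 kDa FGF2 on the right; each point is a gene, black lines are medians of the genes drawn and filled points passed the test. THRSP lies farthest to the left in both panels (-2.74 and -2.47), AGPAT2 is above 1 in both, and MBTPS2 lies farthest to the right with 22.5 kDa FGF2 (2.28).

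Markers of other cell types moved beside these genes in part. The 7 adipocyte markers listed, 4 of them tested, summed to 40.9 to 42.0 CPM with the empty vector, 23.4 to 26.2 CPM with 18 kDa FGF2 and 16.2 to 18.4 CPM with 22.5 kDa FGF2, with FABP4 at no count in any library. PLIN4 and LPL, 2 lipid droplet and lipase genes of that list, passed as lower with both isoforms. PLIN4 went from 28.1 and 28.5 CPM to 9.67 and 7.73 CPM with 18 kDa and 6.57 and 5.81 CPM with 22.5 kDa FGF2, and LPL from 12 and 10 counts to no count in the 4 FGF2 libraries. PLIN4 made up most of the summed level with the empty vector. ADIPOQ, the hormone adiponectin, lay the other way, with 12 and 15 counts with the empty vector, 45 and 33 with 18 kDa and 19 and 17 with 22.5 kDa FGF2, and it did not pass (log2 fold change 1.35, adjusted p = 0.0621, with 18 kDa, 0.34, adjusted p = 0.751, with 22.5 kDa FGF2). CIDEC had 8.94 and 7.13 CPM with the empty vector, 9.52 and 9.66 CPM with 18 kDa and 6.41 and 9.02 CPM with 22.5 kDa FGF2 and did not pass either. The LPL call was lost with DESeq2 for 18 kDa FGF2 (0.0608, range 3.3e-05 to 0.0608) and without 22.5 kDa replicate 1 (0.0668) or 2 (0.0666) for 22.5 kDa FGF2 (range 4.05e-05 to 0.0668). Luminal markers summed to 15540 to 20360 CPM with the empty vector, 19260 to 22920 CPM with 18 kDa and 12390 to 15290 CPM with 22.5 kDa FGF2, and 0 of 8 passed with edgeR (1 higher with 18 kDa, 1 higher and 2 lower with 22.5 kDa FGF2 at an unadjusted p under 0.05, 1 higher with 18 kDa FGF2 in DESeq2). The 7 fibroblast markers summed to 52.2 to 60.4, 42.4 to 43.6 and 39.7 to 40.3 CPM in the same order, most of it COL1A1. Of the 4 tested, THY1 was lower with 18 kDa (log2 fold change -3.24, adjusted p = 0.000895) and 22.5 kDa FGF2 (-4.38, adjusted p = 0.00017), from 21 and 23 counts to 3 and 2 and to 1 and 1, and the 18 kDa call was lost with DESeq2 (0.0528, range 0.000112 to 0.0528). COL1A2 and COL3A1 had values above 0 with 22.5 kDa FGF2 that did not pass (1.33, adjusted p = 0.101, and 0.98, adjusted p = 0.300). The 4 endothelial markers summed to 3.75 to 5.90, 5.22 to 5.45 and 2.60 to 4.81 CPM, and the 2 tested went opposite ways with 18 kDa FGF2. VWF was higher there, with 3 and 6 counts against 25 and 26 (2.31, adjusted p = 0.0118), a call lost with DESeq2 (0.130) and without empty vector replicate 1 (0.195, range 0.00269 to 0.195). KDR was lower, with 30 and 13 counts against 9 and 5 (-1.76, adjusted p = 0.0470), and passed in 5 of 13 alternatives (range 0.0225 to 0.678, highest without empty vector replicate 1). The 5 leukocyte markers summed to 13.6 to 14.1, 11.2 to 15.96 and 7.33 to 10.2 CPM. The part of any of these in the members' values was not tested.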

How the data were processed

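RNA of T47D-YA cells was sequenced in 6 libraries, 2 for each of 3 groups. Per the labels' protocols, directional paired-end libraries were made from mRNA with a TruSeq kit. The authors deposited raw counts, whole numbers per Entrez gene without normalization. Per the submitters' processing notes the build was hg19 and the tool edgeR; aligner, counter and strand setting were not given in the sources used here. Whether the counts keep reads of overlapping antisense genes apart is therefore not known. The counted totals are well below the read yield that the protocols state, for a reason not stated.

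Symbols were matched by Entrez ID for 23308 of 23459 genes. The fit used edgeR 4.0.16 under R 4.3.3 (TMM, filterByExpr with a minimum count of 10, robust quasi-likelihood fit), all 6 libraries in 1 model with 3 residual degrees of freedom. It tested 13124 genes, removed 10335, and had a common biological coefficient of variation of 0.199. Tests are two-sided, with Benjamini-Hochberg adjustment over all genes tested, called at an adjusted p under 0.05. Levels are CPM scaled with TMM factors, and intervals are 95% intervals of the fit. With 2 libraries a group the smallest exact permutation p is 0.333, and such tests were left out. Alternatives were RLE size factors, DESeq2 1.42.0, no filter, a minimum count of 30, the 2 groups alone, a replicate block, a test against a fold of 1.5, and leaving out each library. The fit was also run on simulated counts. These were drawn independently for each library with the spread that the fit had estimated, so they could not show variation shared between libraries.

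Full values are given for members that passed in any comparison, the 2 most abundant of each list, paralog pairs, and up to 4 passing genes of each further list. A few more members (HMGCS1, SQLE, CYP51A1, MSMO1, EBP, STARD4, ACACA) are printed to account for every member. Members and lists were chosen with earlier results of these data known, and no set test was made. Neighbours and transcript lengths come from GRCh38 annotation (RefSeq and GENCODE release 29), used only for order and length. Promoters are RefSeq sequences of GRCh38.p14. Some results are not reported here, and the plot of the further lists leaves them out.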

Additional observations from a re-analysis of the deposited data

How the results depend on the processing

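No log2 fold change that passed changed its sign under any alternative. Of the values of members under all alternatives, 1275 stayed on their side of the threshold, 39 lost a call and 27 gained one. Most of these values had not passed in the main fit, so the 1275 say little about the calls themselves. Of 14 alternatives each, the call was lost in 3 for LSS with 18 kDa FGF2 and in 7 for SREBF1 between the isoforms. With 22.5 kDa FGF2 it was lost in 4 for MVK and FADS2, 5 for SREBF1, INSIG1 and SCD, and 6 for LPIN1. All calls of members were lost against a fold of 1.5, where 0 members passed as lower with 18 kDa FGF2, 0 as higher and 0 as lower with 22.5 kDa FGF2 and 0 as lower between the isoforms. Of the other genes named, ELOVL5 (0.408 with 18 kDa, 0.258 with 22.5 kDa FGF2), MLXIPL (0.198, 0.100), OSBP (0.911), SCD5 (0.0589), KDR (0.160), AGPAT2 with 22.5 kDa FGF2 (0.0704) and GGPS1 (0.219) also lost a call there. Over all genes that test left 168 higher and 328 lower with 18 kDa FGF2, 253 and 390 with 22.5 kDa FGF2, and 56 and 22 between the isoforms, and the share of higher calls with 18 kDa FGF2 went from 46.1% to 33.9% (35.2% and 35.3% without empty vector replicate 1 and 2). INSIG2 joined LPIN1 as a second member higher with 22.5 kDa FGF2 with RLE size factors, no filter or the 2 groups alone (2 in each). No filter gave 335 and 110 genes between the isoforms, and the 2 groups alone 0 members lower there.

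With both first FGF2 libraries left out, an alternative chosen after seeing the data, 959 and 956 genes passed with 18 kDa FGF2, with 3 members higher and 3 lower. It gave 1409 genes higher with 22.5 kDa FGF2, with 3 members higher (PMVK, EBP and ACSS2, while LPIN1 lost its call at an adjusted p of 0.0728) and 9 lower, and 240 and 114 genes between the isoforms.

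Leaving out 1 library at a time gave 217 to 616 genes higher and 400 to 824 lower with 18 kDa FGF2, with 0 to 1 members each way. With 22.5 kDa FGF2 it gave 275 to 1005 higher and 350 to 1014 lower, with 0 to 2 members higher and 0 to 6 lower. Between the isoforms it gave 26 to 574 and 11 to 159, with 0 to 0 members higher and 0 to 1 lower. A lone library left in a group is assumed to vary like the other groups. The same holds for both FGF2 groups when both first FGF2 libraries are left out. The counts of genes and members that passed in these fits rest on that assumption. They do not show whether members passed more often than other genes. This also holds for the members that passed as lower with 22.5 kDa FGF2 when both first FGF2 libraries were left out. Over all genes, too, more passed as lower in that fit than in the main fit.

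The replicate block gave 247 and 90 genes between the isoforms and ended the OSBP call with 18 kDa FGF2 (0.0557). The deviations of same-numbered libraries correlated across genes at -0.271 between the empty vector and 18 kDa FGF2. They correlated at 0.387 between the empty vector and the other isoform, and at -0.413 between the isoforms. The numbers of the labels thus gave no pairing of the same sign in all groups, and both negative values involved the 18 kDa group. Exchanging the library numbers of the 18 kDa group would reverse the sign of both, so that in that order all correlations would be positive. A fit with a block in that order was not made. The replicate block followed the label numbers and could not remove variation shared in that order. At a median standard error of 0.23 on the log2 scale, small changes of members were not detectable with 2 libraries a group.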
